A study of Mus musculus with 4 samples.

Results

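Aire, Dnmt3l, Icosl, Trpm2 and Lrrc3 lie close together on mouse chromosome 10, and the RNA level of each was followed in mouse embryonic stem cells (mESCs) that lost the transcription factor ZBTB21. These 5 genes were found among the 55401 gene IDs of the count table by matching the IDs to GENCODE symbols. They were selected on the measured fall of Aire RNA in this same comparison and on their position near Aire. The values and calls of the members are therefore a description, no p-value is given for them and the calls are not read as a test. The question asked of them was whether the fall is shared along the locus.

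All cells were ZBTB21-degron mESCs, grown with LIF, CHIR99021 and PD0325901. They came from an OsTIR1 line in which both alleles of Zbtb21 had been given a degron and GFP tag at the end of the coding sequence. Untreated cells (2 libraries) were compared with cells that received doxycycline at 1 µg/ml for 24 h followed by the auxin IAA at 500 µM for 24 h, which leads to destruction of the tagged protein (2 libraries, called degron here). Neither the number of clones behind the RNA nor a doxycycline treatment of the untreated cells is stated, so loss of ZBTB21 and the additions cannot be told apart.

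AIRE is a nuclear protein best known from medullary epithelial cells of the thymus, where it turns on genes of many other tissues so that developing T cells are exposed to their products. DNMT3L has no methyltransferase activity of its own. It stimulates the de novo DNA methyltransferases DNMT3A and DNMT3B and is needed for methylation of the germ line. Both proteins can bind the tail of histone H3 when its lysine 4 is unmethylated. ICOSL is a surface ligand of the T cell receptor ICOS, TRPM2 is a calcium-permeable channel opened by ADP-ribose, and LRRC3 is a membrane protein with leucine-rich repeats.

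The locus reads, from low to high coordinates in mm10, Lrrc3 (77897575 to 77902536, minus strand), Trpm2 (77907722 to 77970563, minus), 1810043G02Rik (77978524 to 77986905, plus; Cfap410 in RefSeq, a protein of cilia), Pfkl (77986947 to 78010083, minus; a subunit of the glycolytic enzyme phosphofructokinase), Aire (78030022 to 78043610, minus), Dnmt3l (78041947 to 78063622, plus) and Icosl (78069302 to 78083913, plus). Pfkl is not a member, but it stands between Trpm2 and Aire and its values are given because the shape of the fall turns on it. The end of Aire lies 19.9 kb from the start of Pfkl, with no annotated gene between them. Aire and Dnmt3l point away from each other with overlapping starts, so that their gene bodies share 1664 bases and their exons 67 bases. Dnmt3l and Icosl are 5.68 kb apart.

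The sequences around the starts of these neighbours are shown because Aire, Dnmt3l and Pfkl fell and the adjoining Icosl did not. On the other side, Pfkl and 1810043G02Rik meet at their ends, and that stretch is not shown. They run from 250 bases before to the first 50 bases of each RefSeq transcript (GRCm38.p6), 5′ to 3′ on the gene's own strand. All 5 members matched the RefSeq table. Dnmt3l has 3 starts in it, of which the first, 1323 bases inside Aire, and the second, 6232 bases beyond the start of Aire, are shown. In mouse oocytes Dnmt3l is known to be transcribed from a start inside Aire. Capitals mark matches on either strand to the motifs named in the next paragraph.
Aire, chr10:78043561-78043860, minus strand: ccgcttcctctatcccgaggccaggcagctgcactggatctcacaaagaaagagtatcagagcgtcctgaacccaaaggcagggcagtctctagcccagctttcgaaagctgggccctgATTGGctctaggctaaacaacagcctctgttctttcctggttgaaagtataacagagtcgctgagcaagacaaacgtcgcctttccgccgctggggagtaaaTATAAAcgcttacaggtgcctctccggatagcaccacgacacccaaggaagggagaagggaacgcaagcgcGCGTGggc
Dnmt3l, first start, chr10:78042037-78042336, plus strand: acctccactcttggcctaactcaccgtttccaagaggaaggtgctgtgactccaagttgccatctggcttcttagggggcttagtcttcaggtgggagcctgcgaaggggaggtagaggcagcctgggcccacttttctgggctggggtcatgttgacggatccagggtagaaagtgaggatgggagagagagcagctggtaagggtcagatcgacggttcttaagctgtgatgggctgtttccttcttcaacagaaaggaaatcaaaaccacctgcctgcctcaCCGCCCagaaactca
Dnmt3l, second start, chr10:78049592-78049891, plus strand: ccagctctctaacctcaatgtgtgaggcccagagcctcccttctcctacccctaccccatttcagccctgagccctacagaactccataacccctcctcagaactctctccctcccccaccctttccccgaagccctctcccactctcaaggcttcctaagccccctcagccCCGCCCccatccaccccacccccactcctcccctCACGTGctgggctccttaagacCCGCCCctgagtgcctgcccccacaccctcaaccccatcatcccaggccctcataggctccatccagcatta
Pfkl, chr10:78009758-78010057, minus strand: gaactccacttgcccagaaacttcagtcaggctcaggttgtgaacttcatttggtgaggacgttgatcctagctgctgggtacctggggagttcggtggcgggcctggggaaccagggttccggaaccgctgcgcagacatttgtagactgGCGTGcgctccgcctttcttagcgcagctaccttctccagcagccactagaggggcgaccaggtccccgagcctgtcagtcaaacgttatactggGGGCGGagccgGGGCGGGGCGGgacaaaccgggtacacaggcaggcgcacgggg
Icosl, chr10:78069118-78069417, plus strand: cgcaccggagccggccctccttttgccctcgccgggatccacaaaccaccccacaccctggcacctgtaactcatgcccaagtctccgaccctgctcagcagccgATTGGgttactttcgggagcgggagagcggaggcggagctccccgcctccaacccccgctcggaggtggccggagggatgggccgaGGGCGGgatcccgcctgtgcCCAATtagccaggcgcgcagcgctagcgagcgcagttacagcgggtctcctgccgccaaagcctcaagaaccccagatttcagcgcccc

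Of the motifs searched, the Aire sequence held TATAAA, the TATA box, from 29 to 24 bases before the start, CCAAT on the opposite strand, and GCGTG, a core of hypoxia response elements, after the start. TATAAA occurs in 13.6% of 32851 RefSeq promoters of 300 bases, CCAAT in 37.4% and GCGTG in 32.4%. Icosl also held CCAAT, with 2 matches. Neither Dnmt3l sequence printed held TATAAA or CCAAT. The second start of Dnmt3l held CACGTG, an E-box found in 7.15% of promoters, which contains ACGTG, the other hypoxia core (19.6%), on both strands. GGGCGG, the GC box (35.7%), was found at Dnmt3l, at Pfkl, where 2 of 3 matches share a base, and at Icosl. GCGTG was also found at Pfkl. TGATGNAA (C/EBP-ATF, 3.97%), TGANTCA (AP-1, 7.81%) and AANATGGC (YY1, 6.05%) were not in any of these windows. The Aire sequence held 16 CpG dinucleotides, more than 67.0% of promoters, Icosl 26 and Pfkl 20. The starts of Dnmt3l held 6, 4 and 3, against a median of 7. A match is a run of letters, not evidence of binding.

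Of the 5 members, 4 had a count in any library and 3 passed the low-count filter of edgeR. Of these 3, Aire and Dnmt3l were called lower and Icosl was not called, beside 21.6% of all 13916 tested genes called lower, 22.2% called higher and 43.8% called in either direction. Since the contrast chose the members, nothing is read from that count. A lower level in bulk RNA can come from fewer cells that express a gene or from less RNA in each cell, and these cannot be told apart.

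Aire (ENSMUSG00000000731.15) was the member with the deepest fall. The untreated libraries held 209 and 151 Aire counts, the degron libraries 12 and 9. As CPM (counts scaled to a common library size by TMM) these are 19.8 and 16.4 against 1.31 and 1.07. Both degron libraries lay below both untreated libraries, as for 34.4% of all tested genes. The gap between the groups was wider than the distance within either. Mean CPM went from 18.1 ± 2.42 to 1.19 ± 0.166 (SD, n = 2). The log2 fold change was -3.91 ± 0.24 (SE), which leaves 6.66% of the untreated level. Of 12507 tested protein-coding genes, 3 had a lower log2 fold change than Aire. Some Aire RNA was still counted in both degron libraries.

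Dnmt3l (ENSMUSG00000000730.13) was lower too, but to a smaller extent. It had 451 and 441 counts in untreated and 222 and 197 in degron libraries, or 42.7 and 47.8 CPM against 24.2 and 23.5 CPM. The groups did not overlap, as for 34.4% of all tested genes that were lower in both degron libraries. The mean went from 45.3 ± 3.61 to 23.9 ± 0.490 CPM (SD, n = 2). Its log2 fold change was -0.92 ± 0.09 (SE), or 52.9% of the untreated level. A log2 fold change at or below that of Dnmt3l was seen in 3.44% of tested genes.

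Exons of the 2 genes share 67 bases in the release used here, of 3825 exonic bases of Aire and 2988 of Dnmt3l, and unspliced reads of one gene can also cover exons of the other within the 1664 bases where the gene bodies overlap. Whether strand was used in counting is not stated, so both values carry that uncertainty. The counts are per gene, so the 16 annotated transcripts of Aire and the 8 of Dnmt3l, with their different starts, cannot be told apart. Within each library, Aire gave 46.3 and 34.2 counts for every 100 counts of Dnmt3l in the untreated cells, and 5.41 and 4.57 in the degron cells. The 2 genes with overlapping starts therefore did not keep 1 ratio.

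**Figure D1:**
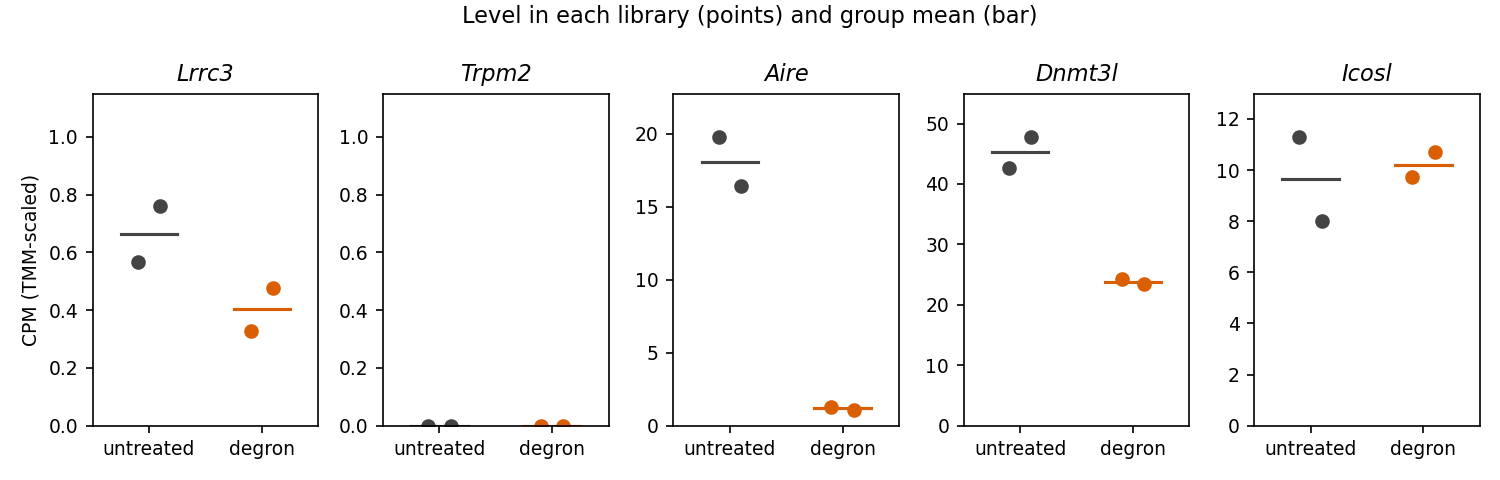
TMM-scaled CPM of the 5 members (y axes, each with its own range from 0) in the 2 untreated and 2 degron libraries; points are libraries and bars are group means. Aire fell from 18.1 to 1.19 CPM and Dnmt3l from 45.3 to 23.9 CPM on average, the Icosl libraries overlap, Lrrc3 stays under 1 CPM and Trpm2 is at 0.

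Icosl (ENSMUSG00000000732.9), the next gene after Dnmt3l, did not show the fall. It had 119 and 74 counts in untreated and 89 and 90 in degron libraries, or 11.3 and 8.02 CPM against 9.71 and 10.7 CPM. The untreated libraries lay on either side of both degron libraries. The means were 9.64 ± 2.29 and 10.2 ± 0.734 CPM (SD, n = 2). The log2 fold change was 0.07 ± 0.17 (SE), with a 95% interval of -0.26 to 0.40. A fall of the size seen in Dnmt3l lies outside that interval, which rests on 2 libraries per group and is given as a description. The log2 fold change of Icosl was 0.34 without untreated replicate 1 and -0.14 without untreated replicate 2.

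Lrrc3 (ENSMUSG00000051652.4) was near the limit of detection. It had 6 and 7 counts in untreated and 3 and 4 in degron libraries, under 1 CPM in each, and did not pass the filter. Summed, 13 counts against 7 give a ratio of degron to untreated of 0.620 per count sequenced, with an exact Poisson 95% interval of 0.209 to 1.67 that covers counting error only. A difference was not detectable at this depth.

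Trpm2 (ENSMUSG00000009292.18) had 0 counts in all 4 libraries. A count of 0 allows up to 3 counts, which is 0.284 to 0.358 CPM across the libraries, so no fold change can be given. The gene is long, with 12459 exonic bases, and 91 of these are shared with small RNA genes.

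Levels of different genes were set side by side per kb of exon, using all annotated exons of a gene. In untreated cells the order was Dnmt3l (15.1 CPM per kb), Aire (4.73), Icosl (2.09), Lrrc3 (0.154) and Trpm2 (0), and the libraries of neighbours in that order did not overlap. In degron cells it was Dnmt3l (7.99 CPM per kb), Icosl (2.21), Aire (0.312), Lrrc3 (0.0937) and Trpm2 (0), again with no overlap between neighbours. Aire and Icosl thus changed places. The Aire libraries were at 5.17 and 4.28 CPM per kb when untreated, above both Icosl libraries at 2.44 and 1.74, and at 0.342 and 0.281 in degron cells, below both Icosl libraries at 2.10 and 2.33.

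**Figure D2:**
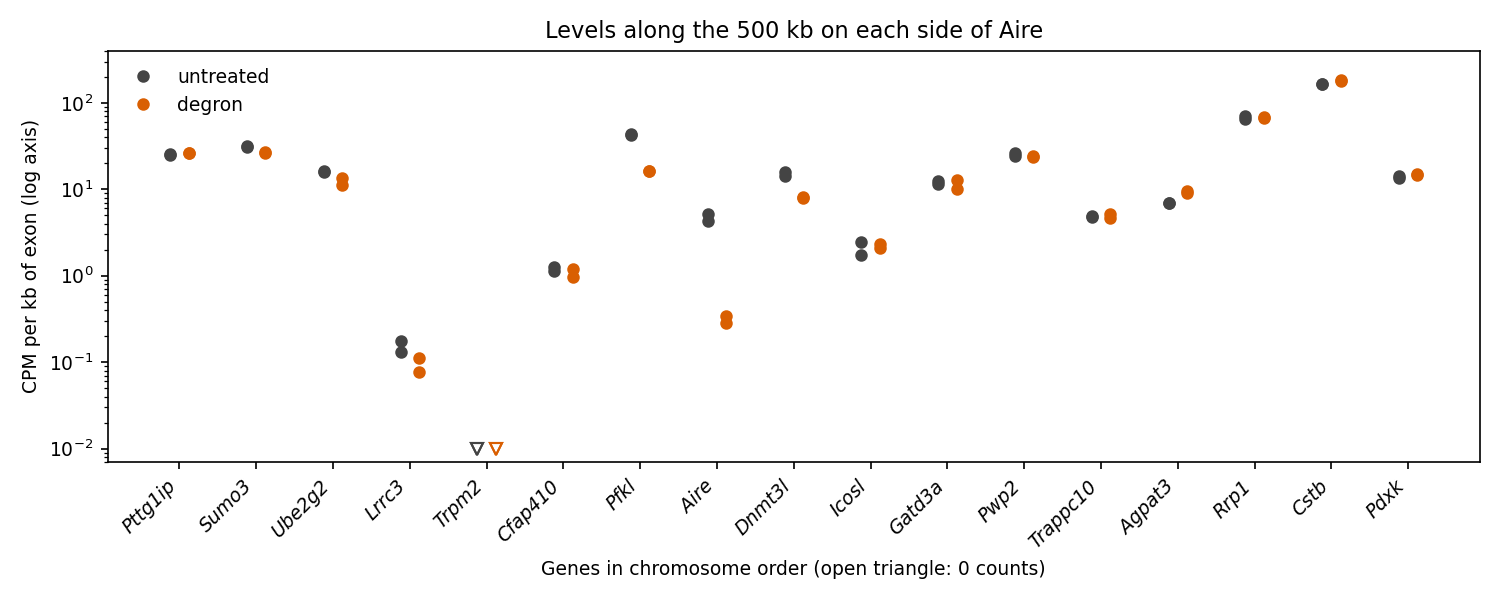
CPM per kb of exon on a log axis for the tested genes within 500 kb of Aire and the 5 members, in chromosome order, with each library as a point (grey, untreated; orange, degron) and open triangles for 0 counts. The 2 groups separate widely at Aire (4.73 against 0.312) and clearly at Pfkl (43.2 against 16.2) and Dnmt3l (15.1 against 7.99), while the libraries of the 2 groups overlap at their tested neighbours Cfap410 and Icosl.

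Along the locus the fall covered 3 consecutive genes. Pfkl had 3072 and 2634 counts in untreated and 985 and 915 in degron libraries, and fell from 288 ± 3.77 to 108 ± 1.28 CPM (SD, n = 2). On the log2 scale this was -1.41 ± 0.06 (SE), with an edgeR adjusted p = 9.94e-35. Together with Aire and Dnmt3l it spans 76.7 kb. A log2 fold change at or below that of Pfkl was seen in 1.18% of tested genes. Tpi1, Pgk1 and Pgam1, glycolytic genes on other chromosomes named after their values were seen, were also called lower. Glycolytic genes were not counted as a set here. Whether Pfkl fell with its neighbours or with glycolytic genes elsewhere was not tested. On the far side of Pfkl, 1810043G02Rik ends 41 bases from the end of Pfkl and was not called. It had 89 and 69 counts in untreated and 73 and 54 in degron libraries. The log2 fold change was -0.14 ± 0.19 (SE), edgeR gave an adjusted p = 0.580, and the 95% interval ran from -0.51 to 0.23. On the other side stands Icosl, described above. The 3 sizes were unequal, deepest at Aire in the middle.

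The rest of the neighbourhood was then counted. Of 73 annotated genes within 500 kb of Aire, 28 had a count, most of the others being gene models named only by a Gm number, and 15 were tested. Of these 15 genes 5 were lower and 1 higher, with a median log2 fold change of -0.06 against 0.011 over all tested genes. Without the members, 3 of 12 genes (25%) were lower and 1 (8.33%) higher, beside 21.6% and 22.2% of all tested genes. Without Pfkl as well, 2 of 11 (18.2%) were lower and 1 higher by edgeR, and DESeq2 called 0 lower and 1 higher. Over all genes DESeq2 also called fewer, 1491 lower and 1445 higher against 3006 and 3087 by edgeR. At an unadjusted edgeR p under 0.05, 2 of the 11 were lower, with no share over all genes to set beside it. Away from Aire, Pfkl and Dnmt3l, the share of lower genes was near that of the genome.

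The 2 other lower genes started 438 and 421 kb from the start of Aire. Sumo3, a small ubiquitin-like modifier, fell from a mean of 113 CPM (112 and 115 in its libraries) to 98.0 ± 1.03 CPM (SD, n = 2; log2 fold change -0.21, edgeR adjusted p = 0.00265), and Ube2g2, a ubiquitin-conjugating enzyme of the endoplasmic reticulum, from 38.9 ± 0.356 to 29.9 ± 3.77 CPM (SD, n = 2; log2 fold change -0.38, edgeR adjusted p = 0.000448). They lie next to each other on the Trpm2 side. The Ube2g2 call was lost without degron replicate 1 (edgeR adjusted p = 0.0802) and with DESeq2 (adjusted p = 0.0705), and the Sumo3 call with DESeq2 (adjusted p = 0.0946). Both share exonic bases with the gene model Gm49325 on the same strand.

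On the Icosl side Agpat3, an acyltransferase of phospholipid synthesis, rose from 53.7 ± 0.0175 to 72.7 ± 1.97 CPM (SD, n = 2). On the log2 scale the rise was 0.44 ± 0.07 (SE), with an edgeR adjusted p = 2.16e-07. The 6 other tested genes beyond Icosl were not called. Their log2 fold changes are given in parentheses. Pwp2 (-0.07) and Rrp1 (-0.01) act in ribosome synthesis, and Trappc10 (0.01) is a vesicle tethering subunit. Cstb (0.12) is a cathepsin inhibitor, and Pdxk (0.09) makes the active form of vitamin B6. The other was D10Jhu81e (-0.06), Gatd3a in RefSeq. Pttg1ip (0.06), beyond Sumo3, was not called either. Cstb was called higher with library sizes alone (edgeR adjusted p = 0.0318) and with the replicate block (edgeR adjusted p = 0.0463). In the wider window of 1000 kb, 5 of 19 genes outside the members (26.3%) were lower and 4 (21.1%) higher. Without Pfkl as well, 4 of 18 (22.2%) were lower and 4 (22.2%) higher, beside 21.6% and 22.2% of all tested genes.

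**Figure D3:**
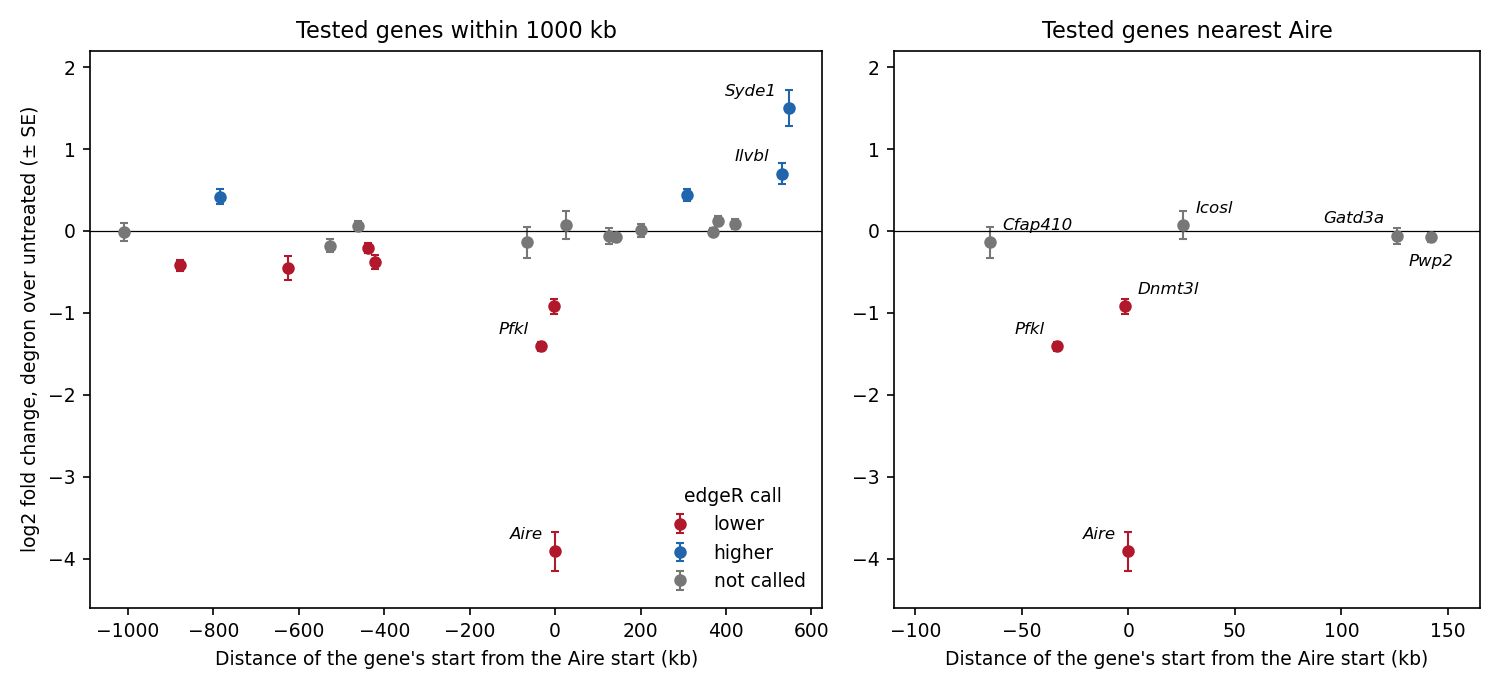
Log2 fold change of degron over untreated (y axis, ± SE) against the distance of each gene's start from that of Aire in kb, for the tested genes within 1000 kb (left) and those nearest Aire (right), coloured by edgeR call. Pfkl (-1.41), Aire (-3.91) and Dnmt3l (-0.92) stand below 0 side by side, with Cfap410 (-0.14) and Icosl (0.07) as neighbours on either side.

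**Figure D4:**
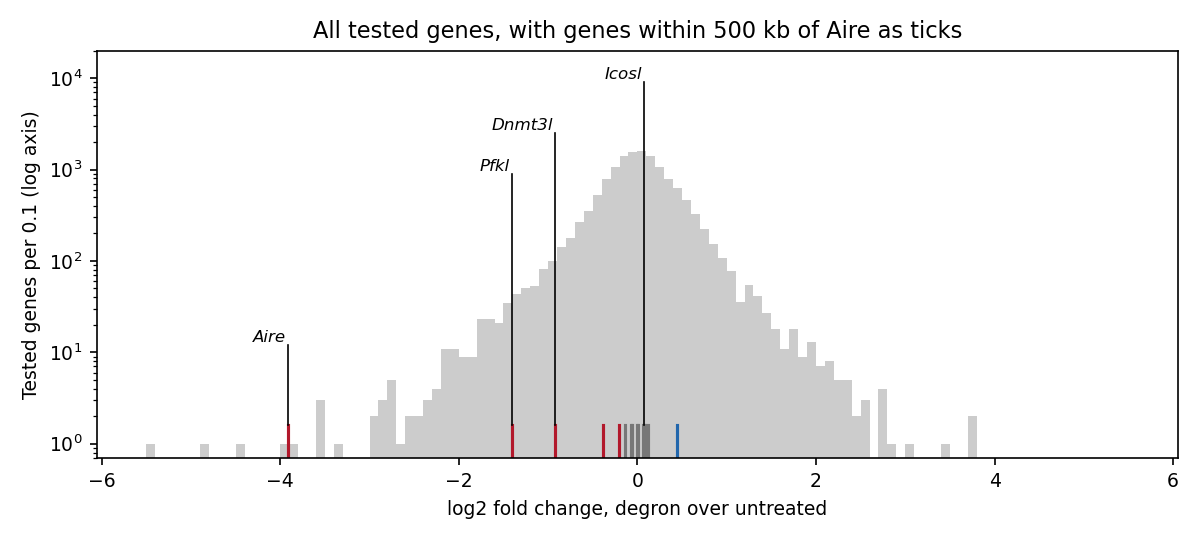
Histogram of the log2 fold changes of all 13916 tested genes (count on a log axis, bins of width 0.1), with the 15 tested genes within 500 kb of Aire as ticks (red, lower; blue, higher; grey, not called). Aire at -3.91 lies in the far left tail, Pfkl and Dnmt3l lie on the left shoulder, and Icosl lies near the centre.

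The genes whose levels over the 4 libraries followed Aire most closely were found by the root mean square difference in log2 CPM, each gene centred on its own mean. They were Slc16a3, a lactate transporter (0.0647), Htr3a, a serotonin receptor channel (0.281), Muc3 (0.295), Igfbp4, which binds insulin-like growth factors (0.323), and A2m, a protease inhibitor (0.401). None is on chromosome 10. Slc16a3 went from 87.0 to 7.22 CPM. Its log2 fold change of -3.60 ± 0.11 (SE) was the nearest of the 5 to that of Aire apart from Muc3 (-3.81). Muc3 had under 2 CPM, and Htr3a went from 2.78 to 0.229 CPM (log2 fold change -3.55 ± 0.54, SE). Both were near the limit of detection in degron cells. For Dnmt3l the closest were Pdzd4 (0.0405), Gm10184 (0.0417), Slc24a1 (0.0433), Chchd6 (0.0456) and Lrrc27 (0.0458), with log2 fold changes of -0.79 to -1.12. Over 2 groups of 2 libraries this likeness mostly reflects the size of the difference between groups.

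RNA levels of genes whose proteins work with AIRE were compared from a list, chosen with earlier results of these data known. All 22 were tested, 7 were lower and 6 higher (31.8% and 27.3%, beside 21.6% and 22.2% of all tested genes), and their median log2 fold change was 0.04. DESeq2 called 4 lower and 5 higher, and over all genes 1491 and 1445 against 3006 and 3087 by edgeR. Crebbp, a histone acetyltransferase and coactivator, rose from 42.8 ± 0.591 to 74.1 ± 3.00 CPM (SD, n = 2; log2 fold change 0.79, edgeR adjusted p = 2.47e-15). Parp1, the main poly(ADP-ribose) polymerase, fell from 943 ± 2.07 to 693 ± 9.57 CPM (SD, n = 2; -0.44, edgeR adjusted p = 3.31e-10). Xrcc6, the Ku70 subunit that binds DNA ends, and Hnrnpl, a splicing regulator, fell with log2 fold changes of -0.45 and -0.38. The called genes went in both directions, and 9 of the 22 were not called.

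In the thymus AIRE is switched on by RANK and related receptors through NF-kappaB. Of 14 tested genes of that pathway 6 were higher (42.9%) and 0 lower by edgeR, beside 22.2% and 21.6% of all tested genes, and the median log2 fold change was 0.26 against 0.011. At an unadjusted p under 0.05 edgeR gave 8 higher and 0 lower, with no share over all genes to set beside it. DESeq2 called 3 higher and 0 lower, and over all genes 1445 and 1491 against 3087 and 3006 by edgeR. Ltbr, the lymphotoxin beta receptor, rose from 3.89 ± 0.129 to 11.6 ± 0.386 CPM (SD, n = 2; log2 fold change 1.58, edgeR adjusted p = 3.87e-10). Rela, an NF-kappaB subunit, rose from 23.3 ± 0.441 to 35.5 ± 1.44 CPM (SD, n = 2; 0.61, edgeR adjusted p = 3.14e-07), and the kinases Ikbkb and Chuk rose by 0.33 and 0.21 on the log2 scale. The Chuk call was lost with DESeq2 (adjusted p = 0.159). Tnfrsf11a, which encodes RANK, had 20 and 17 counts in untreated and 18 and 8 in degron libraries and was not called. 

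All 6 listed genes that AIRE turns on in mouse thymus, Ins2, Spt1 (Mucl2 in the annotation), Csn2, Fabp9, Mup4 and S100a8, had 0 counts in all 4 libraries. Up to 3 counts each remain possible, so no change could be seen in either direction. Among relatives of AIRE with SAND or PHD domains, 2 of 11 tested genes (18.2%) were lower and 4 (36.4%) higher, beside 21.6% and 22.2% of all tested genes, and the median log2 fold change was 0.05. Trim66 rose from 4.14 ± 0.177 to 20.0 ± 0.415 CPM (SD, n = 2; 2.27, edgeR adjusted p = 2.12e-19) and Skil, a repressor of SMAD signalling, fell with a log2 fold change of -0.65. Trim24 and Phf12 rose with 0.26 each. Sp100, Sp110 and Sp140 did not pass the filter, with at most 16 counts summed over the libraries.

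DNMT3L acts with DNMT3A and DNMT3B, and these moved less than Dnmt3l itself. Dnmt3b fell from 112 ± 0.594 to 86.7 ± 0.541 CPM (SD, n = 2), which is -0.38 ± 0.06 (SE) on the log2 scale with an edgeR adjusted p = 2.68e-07, and Dnmt3a, at -0.08 ± 0.07, was not called. Of 13 tested DNA methylation genes 6 were lower (46.2%) and 3 higher (23.1%), beside 21.6% and 22.2% of all tested genes, and the median log2 fold change was -0.10. Tet2, which oxidizes methylcytosine, rose from 111 ± 3.09 to 169 ± 5.83 CPM (SD, n = 2; 0.60, edgeR adjusted p = 7.91e-15), Nsd1, a histone H3 lysine 36 methyltransferase, rose by 0.48 on the log2 scale, and Kdm1a, which removes methyl groups from histone H3 lysine 4, fell with -0.34.

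Of 11 B7 family ligands and receptors, 3 were tested. Of these, 2 were lower (66.7%) and 0 higher, beside 21.6% and 22.2% of all tested genes. Cd80 was not called, with a log2 fold change of 0.07 ± 0.39 (SE). Vsir, an inhibitory ligand of T cells, had 31 and 34 counts in untreated and 6 and 8 in degron libraries (log2 fold change -2.02, SE 0.39, edgeR adjusted p = 1.21e-05). Cd276 had a log2 fold change of -0.35 (edgeR adjusted p = 0.0105), and this call was lost with DESeq2 (adjusted p = 0.207) and without untreated replicate 1 (edgeR adjusted p = 0.125), degron replicate 1 (0.0544) or degron replicate 2 (0.0613). Icos, the receptor of ICOSL, had 0 counts in all libraries. Of 12 tested TRPM channels and enzymes of ADP-ribose metabolism, 2 were lower (16.7%) and 5 higher (41.7%), beside 21.6% and 22.2% of all tested genes, and the median log2 fold change was -0.01. Cd38, an ectoenzyme that makes ADP-ribose, rose from 15.0 ± 0.211 to 39.6 ± 2.07 CPM (SD, n = 2; 1.40, edgeR adjusted p = 5.22e-19), and the channel gene Trpm1 rose with 1.04, while Macrod1, which removes ADP-ribose from proteins, fell with -0.95. The 2 relatives of Lrrc3, Lrrc3b and Lrrc3c, had at most 4 counts summed over the libraries and were not tested.

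Library totals ranged from 8344408 to 10604451 counts. Zbtb21 mRNA itself went from 59.3 ± 3.41 to 131 ± 2.51 CPM (SD, n = 2). The degron removes protein, not mRNA, and these values therefore do not check the labels. All 10 markers of mESCs were detected, with 3 called lower and 3 higher, beside 21.6% and 22.2% of all tested genes. Their summed CPM, in which Dppa5a was the most abundant, was 6360 to 6430 in every library. That sum does not show the changes of single markers. Of 11 markers of medullary thymic epithelium, 7 had under 10 counts over all libraries, with Krt5, Ccl21a and Fezf2 at 0, and their sum, mostly Epcam, was 88.7 and 95 CPM in untreated and 92.8 and 88.1 CPM in degron libraries. The markers of B and dendritic cells summed to 13.0 and 11.6 CPM in untreated and 9.39 and 11.1 CPM in degron libraries, with 1 of 3 tested markers called lower and Ms4a1, Ptprc and Itgax at 0. The germ cell markers summed to between 52.2 and 56.1 CPM, and Nanos2 was at 0. The fibroblast markers, mostly Thy1, moved with the groups, with sums of 9.43 and 10.8 CPM in untreated and 4.86 and 3.24 CPM in degron libraries and 1 of 2 tested markers called lower, while Postn, Lum and Dcn were at 0 throughout. Since 21.6% of all tested genes were lower, 1 call among so few markers says little. The part of the fibroblast markers in the results was not tested. The labels number the replicates without mention of separate cultures, so the p-values may reflect technical spread alone.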

How the data were processed

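RNA was sequenced in 4 libraries of ZBTB21-degron mESCs, 2 untreated and 2 degron. The authors deposited unnormalized read counts for each gene, made by trimming with cutadapt 2.6, mapping to mm10 with STAR 2.7.6a, removing PCR duplicates and counting primary alignments over GENCODE vM25 genes with featureCounts 1.6.3, as given in the processing notes of the submitters and in the methods. Whether reads were assigned by strand is not stated.

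Count columns were assigned to samples through the sample titles, leaving 0 unused. Of 55401 gene IDs, 55141 matched GENCODE release 21 (GRCm38) with versions dropped and 260 did not. That older release gave symbols, coordinates and exonic lengths. Libraries held 8344408 to 10604451 counts.

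The test was the quasi-likelihood F test of edgeR 4.0.16 (R 4.3.3), after filterByExpr and TMM, with group as the only term. Genes were called at a Benjamini-Hochberg adjusted p under 0.05 over the 13916 genes that passed. Levels are CPM after TMM, and marker sums are CPM of the plain totals. Standard errors were taken as the absolute log2 fold change over the root of F. An exact permutation of 2 against 2 libraries reaches 0.333 at the lowest (two-sided), and calls therefore rest on the edgeR model. The procedure was tested on simulated counts.

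The genes named were the 5 members, every tested protein-coding gene whose record overlaps 500 kb on either side of Aire, up to 4 called genes per list in order of p, the 5 genes most like Aire and Dnmt3l, and Zbtb21. Any other gene was named after its values were seen. The members and lists were chosen with earlier results of these data known, so no p is given for the members. Alternatives were DESeq2 1.42.0, limma-voom in limma 3.58.1, other scalings, no or a stricter low-count filter, the replicate block, fits lacking 1 library, nuclear protein-coding genes alone, glmTreat at 1.5-fold, and windows of 250 and 1000 kb. In DESeq2, 13736 of 26808 genes had an adjusted p of NA, kept as NA.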

Additional observations from a re-analysis of the deposited data

How the results depend on the processing

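Over 13 alternatives the log2 fold change of Aire ran from -4.06 to -3.77, that of Dnmt3l from -1.01 to -0.84 and that of Icosl from -0.14 to 0.34, given as a description. Lrrc3 had -0.70 ± 0.70 (SE) with no low-count filter, and Trpm2, at 0, gave no value. Against the main counts of 3006 genes lower and 3087 higher, DESeq2 called 1491 and 1445, and a 1.5-fold minimum left 239 and 287. Within 500 kb of Aire, where edgeR called 5 lower and 1 higher, DESeq2 called 3 lower, the 1.5-fold minimum left 3 lower and 0 higher, and library sizes alone and the replicate block each gave 2 higher. The window of 250 kb held 3 lower and 1 higher, and that of 1000 kb 7 lower and 4 higher. All counts within these windows include Aire and Dnmt3l, members chosen with earlier results known, so nothing is read from their steadiness. Without the members and Pfkl, edgeR called 2 of 11 genes within 500 kb lower (18.2%), beside 21.6% of all tested genes. DESeq2 called 0 of them lower. Leaving out 1 library at a time gave 2201 to 2717 genes lower and 2369 to 2684 higher, and 4 to 5 lower and 1 higher within 500 kb. With the replicate block 3276 genes were lower and 3369 higher. Same-numbered libraries deviated together only weakly (correlation across 9475 genes 0.224), and the labels do not say whether they share more than a number. The depth limits Lrrc3 and Trpm2, and overlapping exons without a known strand limit Aire and Dnmt3l.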
